A study of Homo sapiens with 12 samples.

Results

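Cultured ML-2 cells, an established line from human acute myeloid leukaemia, were compared with and without ASTX660 after SGI-110 had been given to both groups. SGI-110 is guadecitabine, a dinucleotide that releases the DNA methyltransferase inhibitor decitabine. ASTX660 is a small molecule that antagonises inhibitor of apoptosis (IAP) proteins. The 6 arrays compared were chosen by their labels from the 12 of the study. The 3 combination arrays came from cells given 2 µM SGI-110 for 24 h and then 5 µM ASTX660 for a further 9 h. The 3 SGI-110 arrays came from cells labelled as having had SGI-110 alone for 33 h, with solvent in place of ASTX660. The other 6 arrays held cells given solvent at both steps and cells given solvent and then 5 µM ASTX660 for 9 h. All 12 arrays thus come from 1 cell line, and each group has 3 arrays, whose titles end in 2, 9 and 13. Arrays that share an ending are treated here as 1 experiment, and the 3 experiments as independent. This pairing is an inference from the titles alone. The labels do not say whether SGI-110 was still present in the last 9 h of the combination.

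IAP proteins bind caspases and the signalling complexes of tumour necrosis factor receptors. Antagonists of these proteins cause cIAP1, the product of BIRC2, to be degraded, which stabilises the kinase NIK (MAP3K14) and can turn on non-canonical NF-kB signalling, and they free caspases from XIAP. Genes of sterol synthesis are governed by the SREBP transcription factors. When sterol in the endoplasmic reticulum is low, SREBP precursors travel to the Golgi, are cut there, and raise transcription of enzymes from acetyl-CoA to cholesterol. When sterol is plentiful, INSIG proteins hold the precursors back. NF-Y, which binds CCAAT boxes, is a known partner of SREBP at these promoters.

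Expression was measured as RMA log2 intensity, so a difference of 1 is a doubling of array signal. Of 19775 genes with a probe set, 12689 were bright enough to test (above the array median in at least 3 arrays). The 6 arrays compared correlated with each other at 0.9953 to 0.9984 across these genes, and their medians lay between 4.71 and 4.77. The 8 myeloid marker genes analysed, among them MPO, LYZ and ELANE, were above the array median in all 6 arrays, with a mean level of 10.4 to 10.6. Markers of T and NK, B, erythroid, epithelial and fibroblast cells had mean levels of 4.65 to 5.26, and 2 genes of each of those sets were above the median in all 6 arrays. In a principal component analysis of the 6 arrays, the first component (39.4% of the variance) set both arrays of experiment 13 (11.6 and 10.3) apart from the other 4 (-7.90 to -1.87). Arrays were compared within experiments, with the experiment number as a block in limma, which the plan of the work had set.

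Adding ASTX660 raised 10 genes and lowered 0 at an adjusted p under 0.05 (0.0788% of the genes tested). They were 7 enzymes of sterol synthesis (ACAT2, IDI1, FDPS, SQLE, LSS, MSMO1 and EBP), the sterol sensor INSIG1, the fatty acid desaturase SCD and the alpha-tubulin gene TUBA1A. Their changes were small, from 0.24 (SQLE) to 0.44 (MSMO1) log2 units, or 1.18-fold to 1.36-fold. With each gene read from its brightest probe set, no gene in the whole comparison changed by more than 0.5 log2 units. At an unadjusted p under 0.05 there were 590 genes, 307 higher and 283 lower, where 634 would be expected from 12689 tests with no change.

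The call count rested on the block, on the variance model and on single arrays. Without the replicate block limma called 0 genes (370 at an unadjusted p under 0.05, smallest adjusted p 0.689), and without the intensity trend in the variances it called 0 (694 unadjusted). It called 0 without SGI-110 array 2 (251 unadjusted), 1 without SGI-110 array 9, 2 without SGI-110 array 13, 2 without combination array 2, 3 without combination array 9 and 3 without combination array 13. MSMO1 passed in 7 of the 9 fits that left out an array or a whole experiment. In all 18 alternative fits each of the 10 genes stayed higher in the combination, with an unadjusted limma p under 0.05. The genes were chosen for small p values in these arrays, which the fits reuse, so this outcome was largely given in advance.

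**Figure D1:**
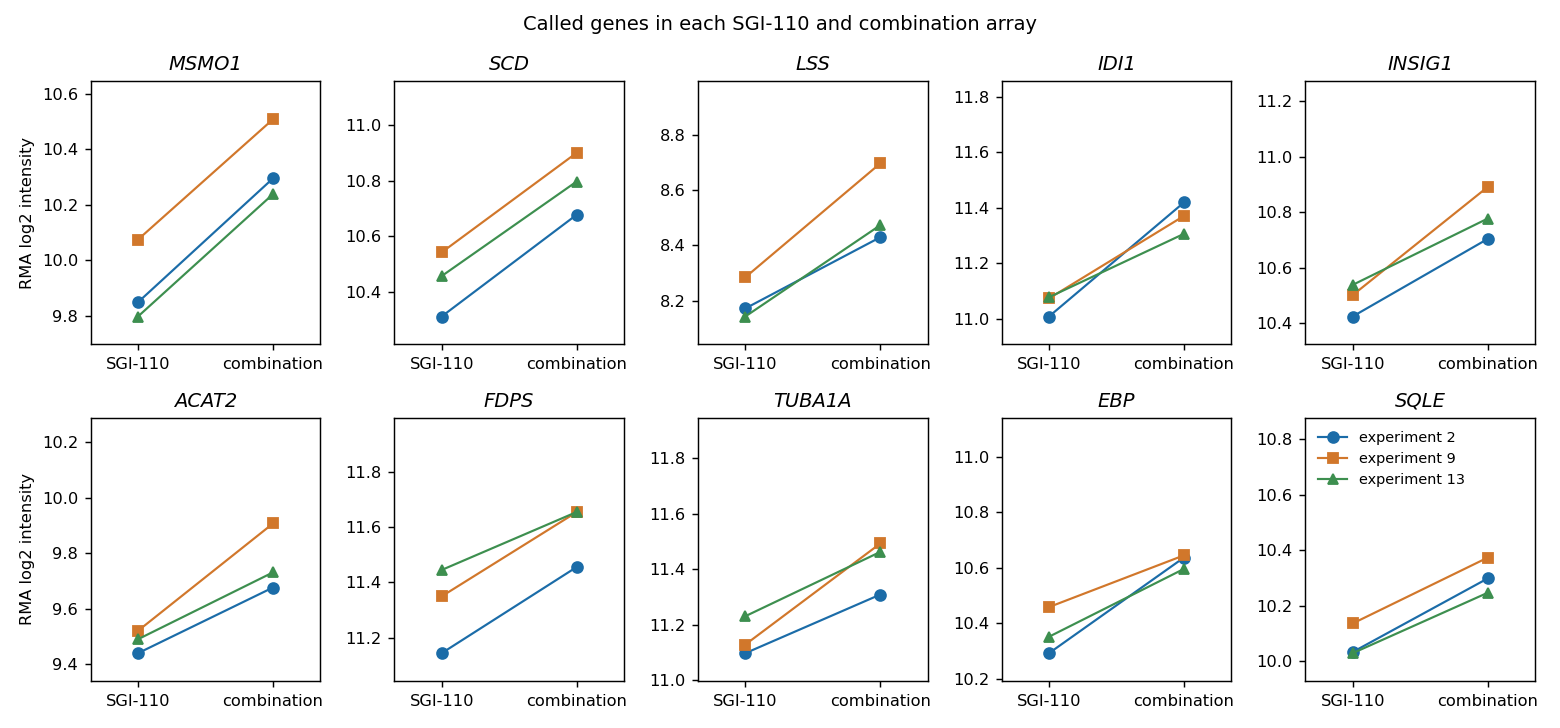
RMA log2 intensity of the 10 called genes in the SGI-110 and combination arrays, with a line joining the 2 arrays of each experiment (2, 9 and 13) and panels that span equal ranges. All 30 lines rise, by 0.187 (EBP, experiment 9) to 0.447 log2 units (MSMO1, experiment 2). In all 10 genes the 3 combination arrays lie above the 3 SGI-110 arrays, as in 4.53% of all genes. The 10 were chosen by a test on these arrays, which favours such patterns.

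The promoter sequences of 3 of these genes are printed because the genes moved together and each of the 3 promoters holds at least 1 CCAAT box. They are MSMO1, the largest change, INSIG1, the regulator of the pathway, and LSS, which also passed the test with ASTX660 alone. Each run is the 250 bases before the RefSeq start on GRCh38.p14, written 5′ to 3′ on the gene's own strand, with CCAAT and its reverse complement ATTGG in capitals. MSMO1 is at chr4:165327419-165327668 on the plus strand, INSIG1 at chr7:155297628-155297877 on the plus strand and LSS at chr21:46228775-46229024 on the minus strand.
MSMO1: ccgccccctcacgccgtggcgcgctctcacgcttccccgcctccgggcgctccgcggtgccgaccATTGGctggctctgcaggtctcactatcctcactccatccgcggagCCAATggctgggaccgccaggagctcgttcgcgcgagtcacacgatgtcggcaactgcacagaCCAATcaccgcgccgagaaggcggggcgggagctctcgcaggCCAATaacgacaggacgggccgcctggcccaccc
INSIG1: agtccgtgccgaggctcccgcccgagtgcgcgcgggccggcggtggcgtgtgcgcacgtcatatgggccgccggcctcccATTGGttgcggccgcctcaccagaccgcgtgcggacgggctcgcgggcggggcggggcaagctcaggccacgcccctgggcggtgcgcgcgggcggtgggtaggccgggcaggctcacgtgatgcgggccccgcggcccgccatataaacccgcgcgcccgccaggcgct
LSS: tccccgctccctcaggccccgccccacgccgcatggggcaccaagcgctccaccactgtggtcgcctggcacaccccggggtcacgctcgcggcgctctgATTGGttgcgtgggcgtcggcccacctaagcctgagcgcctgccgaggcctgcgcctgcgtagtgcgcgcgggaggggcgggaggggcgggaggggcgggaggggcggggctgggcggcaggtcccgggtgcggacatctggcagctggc

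MSMO1 held 4 copies of the motif in this window, and INSIG1 and LSS held 1 each. The RefSeq promoter table had an entry for 8 of the 10 called genes. With windows of 300 bases, from 250 before to 50 after the start, CCAAT on either strand was present in 9 of the 10 windows of these 8 genes, against 34.6% of 35116 windows in the table. Of the 18 sterol synthesis genes described next, 16 had an entry, and 16 of their 23 windows held CCAAT. The motif TCACNCCAC, searched on both strands as a form of the sterol response element, was in 0 of the 10 windows and in 1.13% of all windows. GGGCGG, a core of Sp1 sites, was in 9 of the 10 windows and in 45.0% of all windows. CACGTG, also searched, was in 2 of the 10 windows, those of LSS and INSIG1, and in 7.26% of all windows. All windows were counted whether or not their genes were bright enough to test, so the shares are not matched for level. The counts are of letter matches in a fixed window, and binding was not measured.

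Sterol synthesis was described with 2 lists, the steps up to squalene and the steps from squalene to cholesterol, of which 8 of 10 and 10 of 12 genes were tested and the rest were not analysed here. Of the 18 tested genes 7 were called higher, 0 lower, and 11 did not pass. Their median change was 0.28 log2 units, against 0.01 over all genes tested. The combination was higher in all 3 experiments for 13 of the 18, where 17.4% of all genes were higher in all 3 and 11.0% lower in all 3. In 13 of the 18 the 3 combination arrays all lay above the 3 SGI-110 arrays, against 4.53% of all genes. The called members fell to 4 in a fit of the 6 arrays alone, to 4 after median centring, to 1 with the mean of all probe sets, and to 0 without the block or without the trend.

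Up to squalene, ACAT2, which encodes the cytosolic enzyme that joins acetyl-CoA units, read 9.44, 9.52 and 9.49 with SGI-110 and 9.68, 9.91 and 9.73 with the combination, in experiments 2, 9 and 13. It rose by 0.29 (SE 0.0519, adjusted p = 0.0391). IDI1, the isopentenyl diphosphate isomerase, went from 11.01, 11.07 and 11.08 to 11.42, 11.37 and 11.31, a rise of 0.31 (SE 0.0478, adjusted p = 0.0201). The SGI-110 arrays of IDI1 lay close together (SD 0.0390, n = 3) and all combination arrays stood above them. FDPS, which makes farnesyl diphosphate, went from 11.14, 11.35 and 11.44 to 11.46, 11.65 and 11.65 and rose by 0.27 (SE 0.0447, adjusted p = 0.0201). In FDPS the experiment with the lowest SGI-110 array also had the lowest combination array, and the highest SGI-110 array lay just below the lowest combination array.

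HMGCS1, the synthase that commits acetyl units to the mevalonate route, had the second largest change of the lists at 0.40 but fell just outside the threshold (SE 0.0749, adjusted p = 0.0568). Its arrays read 9.27, 9.65 and 9.43 with SGI-110 and 9.72, 10.08 and 9.75 with the combination. A dimmer probe set of HMGCS1 changed by 0.54 (unadjusted p = 9.76e-06). The other steps of this stretch did not pass. MVD, the mevalonate diphosphate decarboxylase, had a change of 0.23, of which 0.61 came in experiment 2 and -0.00 in experiment 13. The kinase genes MVK (-0.06) and PMVK (0.00) and the synthase gene GGPS1 (0.08) had intervals that spanned 0. The probe sets of MVK disagreed, with the one used at -0.06 and another at 0.42 (unadjusted p = 0.000142).

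From squalene onward, SQLE, the epoxidase and a rate-controlling step, read 10.03, 10.14 and 10.03 with SGI-110 and 10.30, 10.37 and 10.25 with the combination. It rose by 0.24 (SE 0.0422, adjusted p = 0.0369). LSS, which closes the rings to lanosterol, went from 8.17, 8.28 and 8.14 to 8.43, 8.70 and 8.47 and rose by 0.33 (SE 0.0592, adjusted p = 0.0391). MSMO1, the sterol C4-methyl oxidase, went from 9.85, 10.07 and 9.80 to 10.30, 10.51 and 10.24 and rose by 0.44 (SE 0.0543, adjusted p = 0.00309). Its 3 within-experiment differences were 0.45, 0.43 and 0.44, while the SGI-110 arrays themselves had an SD of 0.148. EBP, the sterol isomerase, went from 10.29, 10.46 and 10.35 to 10.64, 10.64 and 10.60 and rose by 0.26 (SE 0.0420, adjusted p = 0.0201).

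Other enzymes of the late steps had changes of similar size that did not pass the test. HSD17B7, a sterol ketoreductase, had a change of 0.31 (adjusted p = 0.0568) and DHCR7, the last reductase on the way to cholesterol, 0.35 (adjusted p = 0.0615). SC5D, the sterol desaturase, had 0.30 (adjusted p = 0.105) and NSDHL, which works beside MSMO1 in removing the C4 methyl groups, 0.30 (adjusted p = 0.461). NSDHL differed by 0.55 in experiment 2 and by 0.13 in experiment 13. TM7SF2 and LBR, which encode the sterol C14 reductases, had 0.18 and 0.00.

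**Figure D2:**
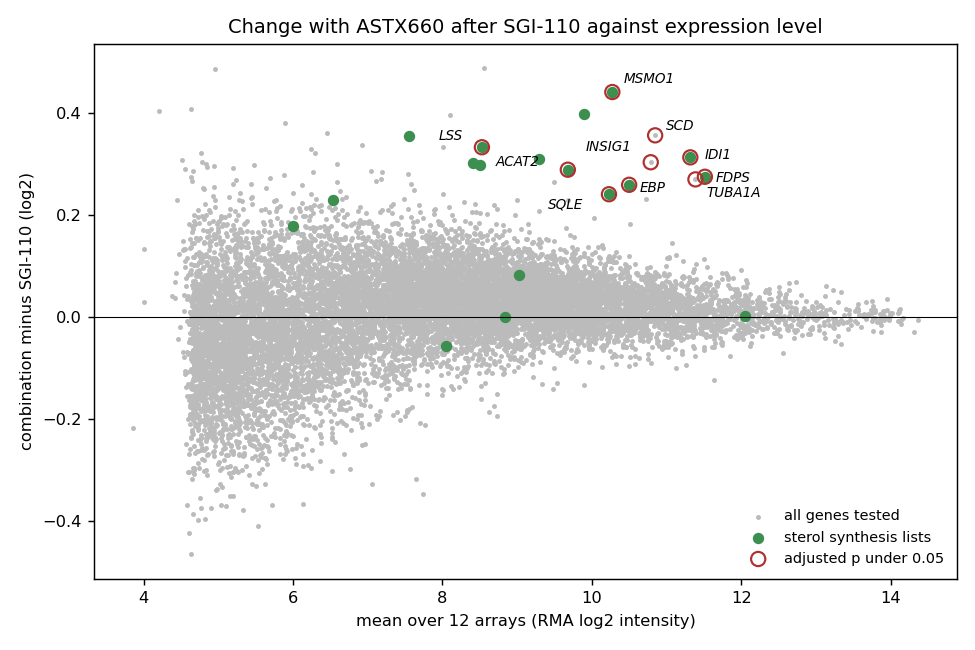
Change from SGI-110 to the combination (log2, vertical) against mean RMA log2 intensity over 12 arrays (horizontal) for the 12689 genes tested, with the 18 sterol synthesis genes filled in green and the 10 called genes ringed in red. The called genes have mean levels from 8.53 (LSS) to 11.51 (FDPS), where the spread of all genes is narrower, and dimmer genes with changes as large were not called.

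Precision differed with expression level. The median standard error was 0.104 for the 3295 genes with a mean level under 6 and 0.0421 for the 1961 genes at 10 or more. Of the called genes, 8 had a mean level of at least 10 and 2 lay between 8 and 10. The median change also moved with level, from -0.05 below 6 to 0.03 between 8 and 10, and the share of genes higher in all 3 experiments was 6.53% below 6, 19.8% from 6 to 8, 24.6% from 8 to 10 and 17.5% above. Of the 9 sterol synthesis genes between 8 and 10, 6 were higher in all 3 experiments, and of the 6 at 10 or more, 5 were. For 99.8% of all genes the 95% interval of the change lay within 1.5-fold in either direction.

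Among regulators and lipid transport genes, INSIG1 was the called one. It read 10.42, 10.50 and 10.54 with SGI-110 and 10.70, 10.89 and 10.78 with the combination, and rose by 0.30 (SE 0.0492, adjusted p = 0.0201). Its 2 other probe sets changed by 0.29 and 0.35. All 13 tested genes of the list for SREBP regulation and sterol uptake had changes above 0, as did 58.7% of all genes. That share is not matched for level, as 11 of the 13 had a mean level of 8 or more. The list median was 0.07, where all genes had 0.03 from 8 to 10 and 0.01 at 10 or more. Of the 13, 1 was called and 7 were higher in all 3 experiments, against 0.0788% and 17.4% of all genes. SREBF2, which encodes the sterol-responsive SREBP, had a change of 0.13 (95% interval -0.03 to 0.29) and SREBF1 one of 0.02. The sterol transport genes TMEM97 (0.23, adjusted p = 0.0948), STARD4 (0.23, adjusted p = 0.517) and NPC1 (0.22, adjusted p = 0.828) did not pass. ABCA1, the sterol exporter and a target of the LXR receptors, had a change of -0.30 (adjusted p = 0.937). The list of LXR targets and sterol efflux had 7 tested genes, with changes from -0.30 to 0.13 and a median of -0.01. Of these 7, 2 were higher in all 3 experiments and 2, ABCA1 among them, were lower in all 3. Over all genes these shares were 17.4% and 11.0%. The ABCA1 mean was 7.33 ± 0.523 (SD, n = 3) with SGI-110 and 7.03 ± 0.562 (SD, n = 3) with the combination. ABCA1 overlapped between the groups. Within experiments 2, 9 and 13 it differed by -0.47, -0.13 and -0.29, lower in all 3 (unadjusted p = 0.00432 with the block and 0.424 without).

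In fatty acid synthesis, SCD, the stearoyl-CoA desaturase, read 10.31, 10.54 and 10.46 with SGI-110 and 10.68, 10.90 and 10.80 with the combination. It rose by 0.36 (SE 0.0606, adjusted p = 0.0299), and the rise in each experiment lay between 0.34 and 0.37. FADS2, another desaturase, had a change of 0.33 and did not pass (adjusted p = 0.0583). The 17 tested genes of fatty acid synthesis and desaturation had a median change of 0.11. Of the 17, 1 was called and 13 were higher in all 3 experiments, against 0.0788% and 17.4% of all genes. The enzymes of the central steps had smaller changes, with ACACA (acetyl-CoA carboxylase) at 0.17, FASN (fatty acid synthase) at 0.10 and ACLY (ATP citrate lyase) at 0.10, all with an adjusted p of 0.961.

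TUBA1A was the called gene outside lipid metabolism. It read 11.10, 11.13 and 11.23 with SGI-110 and 11.31, 11.49 and 11.46 with the combination, and rose by 0.27 (SE 0.0419, adjusted p = 0.0201). Of the 10 alpha-, beta- and gamma-tubulin genes tested it was the 1 called, and their median change was 0.06. The close relatives TUBA1B and TUBA1C, whose transcripts resemble that of TUBA1A, had changes of -0.00 and 0.01. Their mean levels, 14.2 and 13.9, lay near the highest values on the arrays (14.3 to 14.4), so they give no firm contrast. TUBA1A was read by 1 probe set, whose probes may also read relatives.

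The 10 called genes had 26 probe sets in all, of which 25 were bright enough and 24 of those had a change above 0. The 15 bright probe sets not used for the main values ranged from -0.05 (EBP) to 0.39 (SQLE), and 10 of the 15 had an unadjusted p under 0.05. MSMO1, FDPS, ACAT2 and TUBA1A rested on 1 probe set each. With the mean of all probe sets per gene, MSMO1 was the 1 gene called, and the median of the 18 sterol synthesis genes was 0.22.

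Genes of the IAP proteins on which ASTX660 is known to act, and of their partners, did not pass the test. XIAP, the caspase-binding IAP, read 9.37, 9.36 and 9.28 with SGI-110 and 9.07, 9.50 and 9.42 with the combination, a difference of -0.01 (95% interval -0.18 to 0.17). The sign of XIAP changed with median centring (0.02). BIRC2 differed by -0.03 (-0.16 to 0.09). Of DIABLO and HTRA2, mitochondrial proteins that bind IAPs, DIABLO differed by -0.04 (-0.12 to 0.04) and HTRA2 by 0.13 (-0.00 to 0.26). The HTRA2 arrays did not overlap between groups, as was so in this direction for 4.53% of all genes, and its adjusted p was 0.961.

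Death receptor and caspase genes did not pass the test either. TNFRSF10B, the TRAIL receptor 2, differed by 0.00 (95% interval -0.11 to 0.12) and FAS by -0.02 (-0.17 to 0.13), each of which changed sign under another scaling. The ligand genes TNF and TNFSF10 (TRAIL) differed by 0.04 (-0.12 to 0.19) and 0.09 (-0.14 to 0.32). Other members of the list of death receptors and ligands differed more. Its 14 tested genes ran from -0.26 to 0.13, with a median of 0.01. In 2 of the 14 the 3 combination arrays all lay below the 3 SGI-110 arrays, and in 0 all lay above. Over the 12689 genes tested these counts were 528 below and 575 above. CFLAR, the caspase-8 inhibitor cFLIP, differed by 0.08, CASP8 by 0.02 (-0.01 after quantile normalization) and CASP9 by 0.15 (-0.01 with the mean of all probe sets). BAX and BCL2, a pore former and an inhibitor of apoptosis at mitochondria, differed by 0.07 each, and BCL2 by -0.06 with the mean of all probe sets. The lists of IAP genes, mitochondrial IAP antagonists, death receptors, their adaptors, caspases, the BCL2 family, necroptosis and pyroptosis, and the non-canonical NF-kB pathway held 85 tested genes together, and 0 of them were called. Over all genes tested 0.0788% were called, so 0 of 85 does not set these genes apart. The median of the 85 was 0.03, against 0.01 over all genes. Of the 85, 17 (20%) were higher in all 3 experiments, against 17.4% of all genes. The widest 95% interval reached 1.39-fold.

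NF-kB signalling genes were likewise not called. MAP3K14, the NIK kinase gene, had a change of 0.14 (95% interval -0.09 to 0.36) that was 0.33 in experiment 2 and -0.04 in experiment 13. Of 14 tested subunit and non-canonical pathway genes 1 was higher in all 3 experiments and 3 were lower in all 3. Over all genes the shares were 17.4% and 11.0%, so these small counts do not set the list apart. CD40, a receptor that feeds the pathway, had a change of -0.13 (adjusted p = 0.961). SQSTM1, which encodes the autophagy receptor p62, was the member of the NF-kB target list with the smallest p, at 0.13 (adjusted p = 0.961). Several genes of these pathways were too dim to test or were not analysed here, and protein levels and cell death were not measured.

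**Figure D3:**
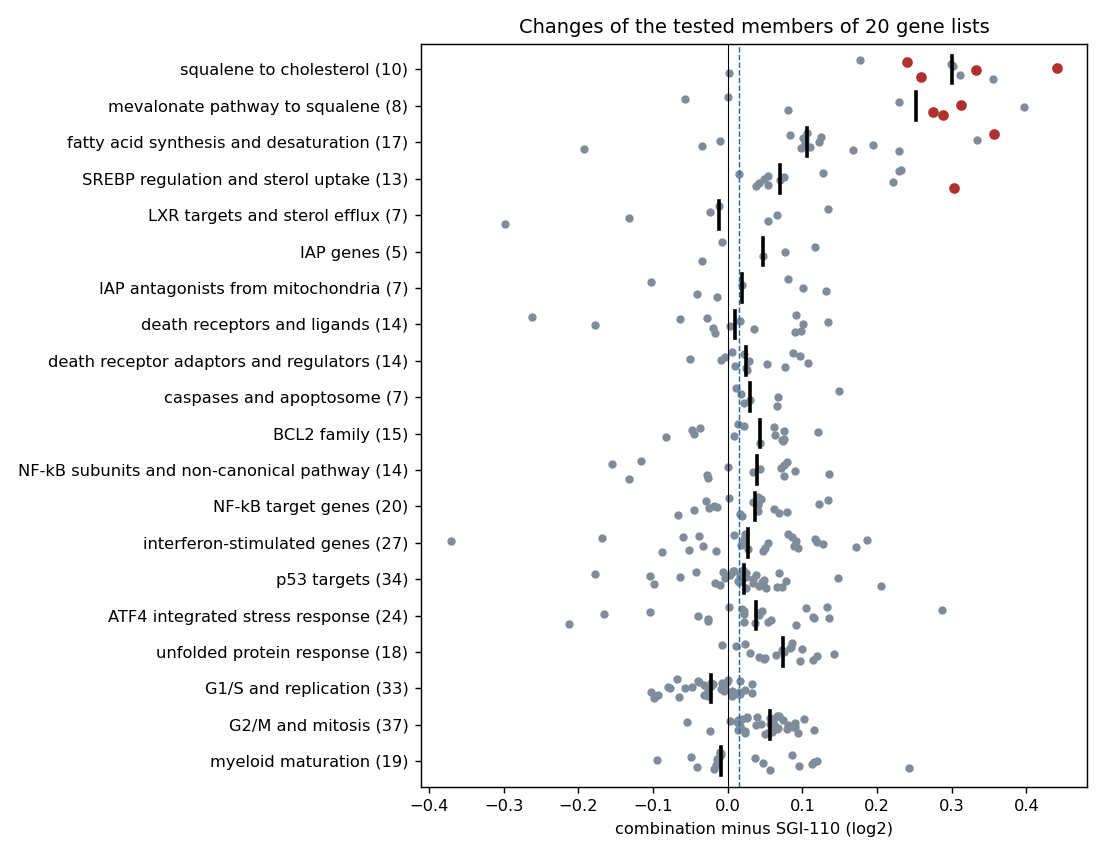
Change from SGI-110 to the combination (log2, horizontal) for each tested gene of 20 lists, with the number tested in brackets, called genes in red, list medians as black bars and the median of all genes (0.01) as a dashed line. The lists for squalene to cholesterol (median 0.30) and the mevalonate pathway (0.25) lie to the right of the other 18, whose medians run from -0.02 to 0.11.

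Outside the lists of sterol synthesis, SREBP regulation and fatty acids, 0 of 533 genes in 31 lists were called, where 0.0788% of all genes were. List medians ran from -0.08 (cancer-testis genes) to 0.07 (unfolded protein response). Of 18 tested genes of the unfolded protein response 13 were higher in all 3 experiments, against 17.4% of all genes and, at this level, 24.6% of genes from 8 to 10 and 17.5% at 10 or more. ERN1, the IRE1 sensor of that response, had a change of 0.14 (adjusted p = 0.961) and differed by 0.13, 0.13 and 0.16 in the 3 experiments. All 18 genes of this list had a mean level of 8 or more. Among 37 genes of G2/M and mitosis 35 had a change above 0, against 58.7% of all genes, with a median of 0.06. That share is not matched for level, as 35 of the 37 had a mean level of 8 or more. The median change of all genes was 0.03 from 8 to 10 and 0.01 at 10 or more. Of the 37, 15 were higher in all 3 experiments. Among 33 genes of G1/S and replication, 32 of them at 8 or more, the median was -0.02 and 1 was higher in all 3. CCNB1, the mitotic cyclin B1, had 0.12 and MCM2, a helicase subunit of replication, -0.08 (adjusted p = 0.961 for each). CDKN1A, the cell-cycle inhibitor p21, differed by -0.01 (95% interval -0.12 to 0.10), with the opposite sign after median centring (0.02).

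The same step was then examined in cells without SGI-110, in 6 arrays that are not members of the first comparison. These arrays still entered the fit behind the first comparison, through the shared spread and block, so the 2 results are not independent. With its own 6 arrays alone the first comparison called 7 genes, 6 of them among the 10. ASTX660 against solvent gave 1 called gene, LSS, at 0.45 (0.00788% of the genes tested; limma adjusted p = 0.00765). At an unadjusted p under 0.05 there were 1464 genes, 994 higher and 470 lower, where 634 would be expected with no change, and 8 genes changed by more than 0.5 log2 units. The count of called genes was 0 without the block and 0 without any 1 of the 3 experiments. Combination arrays bear on it through the shared spread and block, and it was 20 without combination array 2 and 15 without combination array 9. All 10 genes called after SGI-110 also had a change above 0 with ASTX660 alone, from 0.12 (FDPS) to 0.45 (LSS). Of all genes, 43.6% had a change above 0 in both comparisons. With ASTX660 alone 9 of the 10 were higher in all 3 experiments (25.2% of all genes were). Of the 18 sterol synthesis genes 14 were higher in all 3 experiments, with a median of 0.23. For MSMO1 the change was 0.27 with ASTX660 alone and 0.44 after SGI-110, and for ACAT2 it was 0.32 and 0.29.

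**Figure D4:**
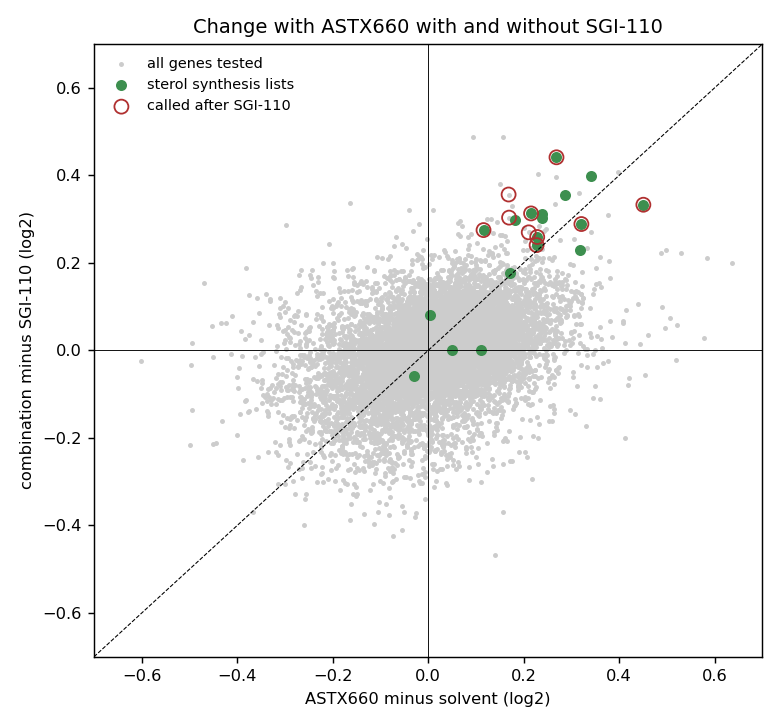
Change from SGI-110 to the combination (vertical) against change from solvent to ASTX660 (horizontal), both in log2 units, for the 12689 genes tested, with the 18 sterol synthesis genes in green, the called genes ringed and equality as a dashed line. Of the 18, 17 lie above 0 on both axes, as do 43.6% of all genes, and LSS is the ringed gene farthest to the right.

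Whether the change with ASTX660 differed with and without SGI-110 was tested by the interaction, which called 0 genes (0% of those tested; 394 at an unadjusted p under 0.05, limma smallest adjusted p 0.995). The 10 genes were chosen for a high change after SGI-110, which is 1 term of the interaction, so their differences between the 2 changes are given as a description with no test. They were 0.17 for MSMO1, 0.19 for SCD, 0.16 for FDPS, 0.01 for SQLE and -0.12 for LSS. Across the 12689 genes the 2 sets of changes correlated at r = 0.382, and at 0.378 without the sterol synthesis genes. Both sets come from the same 3 experiments and share the dependence on level, and within ranges of level r was 0.213 to 0.396. Between experiments, the changes from SGI-110 to the combination correlated only weakly across genes. The values of r were 0.152 (experiments 2 and 9), -0.062 (2 and 13) and 0.153 (9 and 13).

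Because the comparison with SGI-110 sets the starting point, the levels of all 4 groups are given side by side. The mean RMA log2 intensity of the 18 sterol synthesis genes in experiments 2, 9 and 13 was 9.12, 9.25 and 9.22 with solvent and 9.43, 9.43 and 9.35 with ASTX660. It was 8.97, 9.11 and 9.07 with SGI-110 and 9.27, 9.34 and 9.25 with the combination. The SGI-110 arrays were the lowest of each experiment and the ASTX660 arrays the highest. For MSMO1 the group means were 10.28 (solvent), 10.55 (ASTX660), 9.91 (SGI-110) and 10.35 (combination), and for SCD 10.99, 11.16, 10.44 and 10.79. Arrays measure a mixture of all cells in a culture, so a change in some cells and a smaller change in all cells cannot be told apart.

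**Figure D5:**
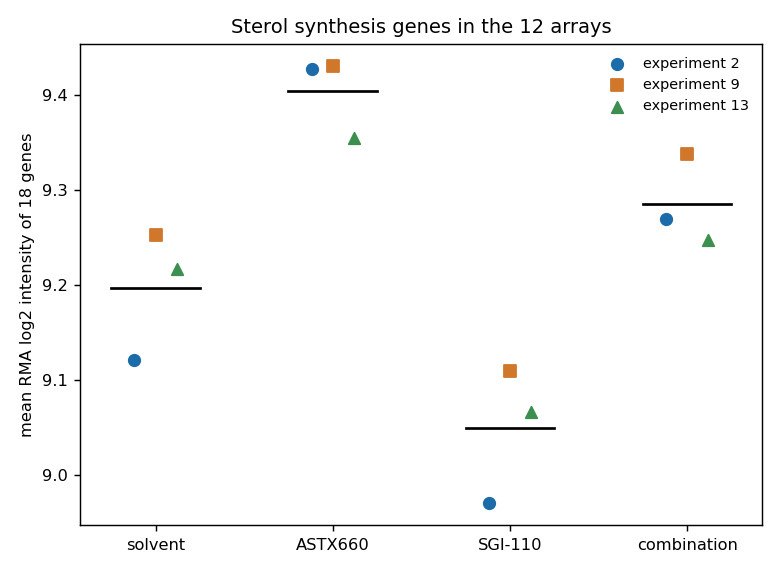
Mean RMA log2 intensity of the 18 tested sterol synthesis genes in each of the 12 arrays, by group, with the experiment shown by colour and shape and the group mean as a bar. Within each experiment the order from low to high was SGI-110, solvent, combination and ASTX660 in experiments 2, 9 and 13, and the vertical axis does not start at 0.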

How the data were processed

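The authors deposited RMA log2 intensities for 54675 probe sets on each array, made with the affy package per the submitters' processing notes, which give no version. Whether all 12 arrays were normalized together is not stated there. Per the labels' protocols, 100 ng of total RNA went into each labelled cRNA. Of the probe sets, 42898 were listed in the platform annotation, 1801 of them with several genes, and 41037 were matched to 1 gene of the RefSeq table. Where a gene had several probe sets, the brightest on average over the 12 arrays was used. Tests used limma 3.58.1 in R 4.3.3 on all 12 arrays, with 4 group means, the experiment number as a fixed block, an intensity trend in the variances, and Benjamini-Hochberg adjustment over 12689 genes. The fit had 6 residual degrees of freedom and a median prior of 11.5, and was tested on simulated data. Every p is two-sided. The number of arrays limits the precision, and the median standard error was 0.0738.

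That the title numbers stand for the experiments is a reading of the titles. Deviations of the SGI-110 and combination arrays of 1 number from their group means correlated at 0.208, 0.484 and 0.544 for experiments 2, 9 and 13, all over 0.1. The pairing of arrays by number was set by the plan of the work, and the labels do not state it.

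The comparison, its members and the 35 gene lists, which were written from general knowledge, were chosen with earlier results of these data known. The rule for named genes took up to 15 called genes in each direction, the up to 4 smallest adjusted p values of each list, and a set of genes named whatever their values, and the text leaves some of these out. All tested genes of both sterol synthesis lists, the tubulin genes, FASN, ACLY, ACACA, MMAB and RUSC1-AS1, where they fall outside it, were chosen after their values were seen. Promoters came from the RefSeq table on GRCh38.p14. The alternatives covered the block, the arrays in the fit, centring, quantile normalization, the brightness filter, probe set averaging, the variance model and leaving out arrays. A test of every probe set was added after seeing the data.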

Additional observations from a re-analysis of the deposited data

Results flagged for a closer look

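A signal lay outside the gene table. When all 28366 bright probe sets were tested on their own with limma and the same block, an alternative added after seeing the data, 13 were called, all higher in the combination. Of these, 9 belonged to 7 single genes, and 4 carried no single gene in the annotation used here (3 were not listed and 1 had several genes). The 4 changed by 0.27 to 0.42 log2 units (largest adjusted p 0.0370), against changes of 0.18 to 0.28 with ASTX660 alone. Their identity was not analysed here.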

How the results depend on the processing

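The calls depended on the pairing of arrays by experiment and on the variance model. With no replicate block limma called 0 genes for the combination against SGI-110, 0 for ASTX660 against solvent and 0 of the 18 sterol synthesis genes. Without the intensity trend these counts were 0, 0 and 0, with the mean of all probe sets 1, 0 and 1, and with array weights 22 (19 higher and 3 lower), 26 and 11. Fits of the 6 arrays alone and after median centring called 4 of the 18 each. Quantile normalization and no brightness filter each gave 2 calls for ASTX660 against solvent. Leaving out arrays gave 0 to 3 calls for the combination against SGI-110, 0 to 20 for ASTX660 against solvent and 0 to 3 of the 18, and these fits have fewer arrays. The interaction stayed at 0 calls in every fit that was run for it. The median of the 18 moved to 0.22 with the mean of all probe sets. Median centring moved the median of all genes from 0.01 to 0.04 and quantile normalization to -0.00, so small changes have no firm sign.

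Signs turned for genes near 0. With the mean of all probe sets MVK was 0.104, XIAP 0.0137, CASP9 -0.00888 and BCL2 -0.0646. After median centring XIAP was 0.0213, FAS 0.0125 and CDKN1A 0.0186. After quantile normalization PMVK was -0.0313, LBR -0.00939, SREBF1 -0.00888, TNFRSF10B -0.0218 and CASP8 -0.00929. With array weights PMVK was -0.00618, SREBF1 -0.0100, XIAP 0.0461, TNFRSF10B -0.0174, CASP8 -0.00607 and CDKN1A 0.00569. The cause of these turns was not tested. Leaving out arrays gave ranges that crossed 0 for BIRC2 (-0.0927 to 0.0384), CASP8 (-0.0605 to 0.101), CDKN1A (-0.0276 to 0.0174), FAS (-0.0584 to 0.0272), LBR (-0.0462 to 0.0727), MVK (-0.139 to 0.00341), PMVK (-0.0651 to 0.0666), SREBF1 (-0.0276 to 0.0411), TNFRSF10B (-0.0477 to 0.0411), TNFSF10 (-0.0533 to 0.215) and XIAP (-0.107 to 0.148). Over 53 named genes, 772 of 953 values kept their direction and side of the threshold.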

Other observations

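The largest change of the comparison was that of RUSC1-AS1, a long non-coding RNA gene, at 0.49 log2 units (SE 0.101, limma adjusted p = 0.105), with differences of 0.77, 0.57 and 0.12 in experiments 2, 9 and 13. It did not pass the test, and it was called after median centring, with array weights and without combination array 13. In the RefSeq table its span overlaps that of the called gene FDPS on chromosome 1, and signal from overlapping genes cannot be told apart here. With ASTX660 alone RUSC1-AS1 changed by 0.16 (adjusted p = 0.547).

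MMAB, which encodes an enzyme of vitamin B12 metabolism, had a change of 0.26 (SE 0.0508, adjusted p = 0.0608) and was higher by 0.35, 0.23 and 0.21 in the 3 experiments. Its span overlaps that of MVK on chromosome 12, for which the probe set used gave -0.06. With ASTX660 alone MMAB changed by 0.16 (adjusted p = 0.306).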
